A study of Mus musculus with 16 samples.

Results

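The step from DN2-3 to DN4 was measured in thymocytes of polyclonal B6g7 mice, as the difference in gene expression between 2 arrays of DN4 cells and 2 arrays of DN2-3 cells, which are 4 of the 16 arrays of the series. Of 19531 genes with a probe set, 10689 were bright enough to be tested. DN4 cells expressed more of the machinery of cell division, mitochondria and protein breakdown, and more Cd8b1, Cd8a, Ikzf3 and Cd2. They expressed less of the Notch pathway, of early progenitor genes, of cytokine receptors and their feedback regulators, of genes induced by T cell receptor (TCR) signals and of interferon-response genes.

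The B6g7 strain has a C57BL/6 background and the MHC haplotype of NOD, a strain prone to diabetes. The donors of all 4 arrays were females 4 weeks old without a transgene (non-Tg), so their thymocytes rearrange their own TCR genes. Cells that carry CD4 or CD8 were depleted with complement, and the double-negative remainder was sorted by flow cytometry. The DN2-3 gate took lineage-negative CD25+ cells, and the DN4 gate took lineage-negative cells without CD44 or CD25. The labels name CD44 only for the DN4 gate, so the DN2-3 group holds both CD25+ stages. For comparison, NOD donors were also non-Tg females of that age. BDC/B6g7 donors, also 4 weeks old, carried the BDC2.5 TCR transgene, with 1 male and 1 female array per stage. BDC2.5 transgenic NOD mice (BDC/NOD) of that age, again with 1 male and 1 female array per stage, also entered the fit. Each of these groups also had 2 arrays. The labels do not say whether the 2 arrays of a B6g7 or NOD group came from separate animals, so their spread may be technical. In the BDC/B6g7 and BDC/NOD groups the 2 arrays differ in sex and so came from different animals. The p-values rest on the spread within all these groups, which therefore includes a difference between male and female arrays.

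Early thymocytes receive Notch signals from the thymic stroma and survival signals through cytokine receptors such as Il7r and Kit. In DN3 cells a rearranged TCR beta chain pairs with the invariant pre-TCR alpha chain, encoded by Ptcra, and the pre-TCR then signals through CD3 without a known ligand. Cells that pass this checkpoint, beta-selection, lose CD25, divide rapidly and go on to express CD8 and CD4.

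Values are log2 intensities, so a difference of 1 is a doubling, and errors are standard errors of the fit over all 16 arrays. A gene was called where its adjusted p was under 0.05. The B6g7 replicates correlated across genes with r of 0.995 for DN2-3 and 0.989 for DN4, and the sex given for each of the 16 arrays was borne out by Xist. Both B6g7 DN4 arrays had a narrower spread of values, with a ratio of upper to lower quartile of 7.60 and 7.46 against 9.15 and 8.68 in DN2-3. Replicate 1 of NOD DN2-3 also stood apart, with a ratio of 6.82 and a correlation with its replicate of 0.960. The background level came from 3 Y-linked genes, chosen because they read higher on every male array than on any female array. They are therefore no check of the sex labels. Their probe sets read up to 5.98 on female arrays, and groups whose 2 arrays both read no more than that were taken as not above background. A difference from such a group is given as the bound "at least", counted from 5.98.

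In B6g7 DN4 cells 1901 genes were called higher, 17.8% of those tested, and 2670 were called lower, 25%. All 4571 called genes had arrays that did not overlap between the stages, as did 8268 of the 10689 tested. Among called genes 100 were at least 2-fold higher and 467 at least 2-fold lower, and 5 were at least 4-fold higher against 50 lower. The balance depends on the spread of the arrays. With each array scaled to the same quartile ratio, 2710 genes were called higher and 2221 lower (55% higher, against 41.6% with the deposited values), and 265 and 408 of them passed 2-fold. With quantile normalization applied again, 2416 were called higher and 2542 lower. Without 1 B6g7 array at a time the calls numbered 2821 without DN2-3 replicate 1, 3148 without DN2-3 replicate 2, 3052 without DN4 replicate 1 and 3825 without DN4 replicate 2.

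**Figure D1:**
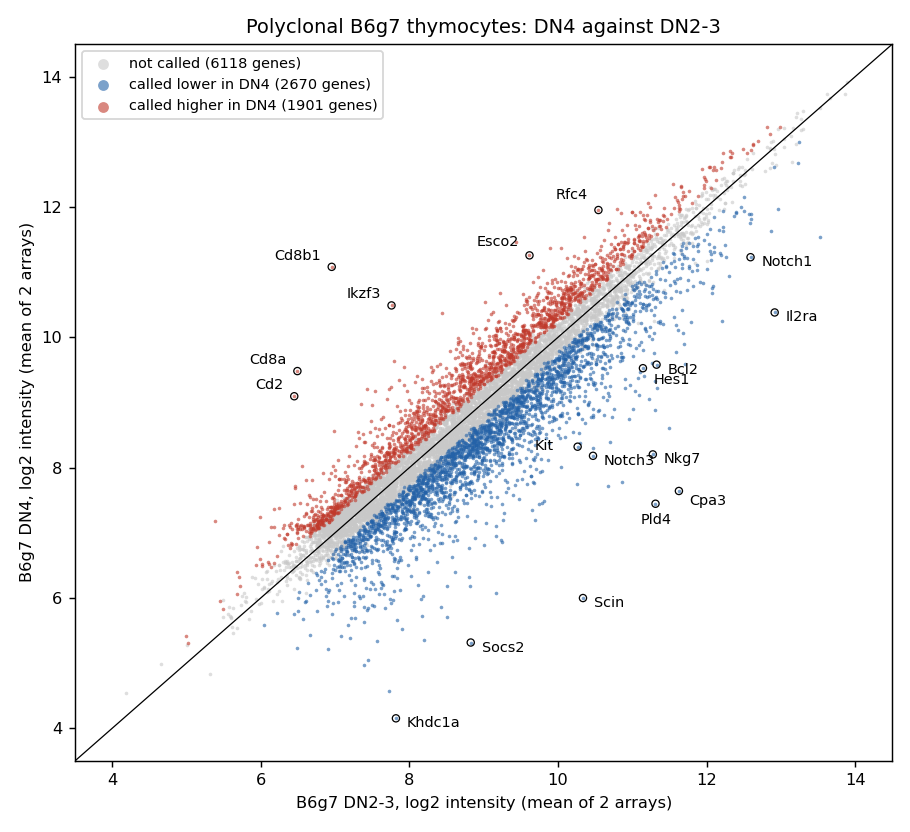
Mean log2 intensity of the 2 B6g7 DN2-3 arrays (horizontal) and the 2 B6g7 DN4 arrays (vertical) for each of the 10689 tested genes, with the line of equal values. Red points are the 1901 genes called higher in DN4 and blue points the 2670 called lower, and circled genes are named in the text. The lower side reaches farther from the line, with 467 called genes at least 2-fold lower against 100 at least 2-fold higher.

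The genes that define the gates followed the labels, which is a check of the sort and not a finding. Il2ra, which encodes CD25, read 12.93 and 12.90 on the DN2-3 arrays and 10.56 and 10.20 on the DN4 arrays, a difference of -2.54 ± 0.12. Its DN4 signal stayed well above background. Cd44 read 7.86 and 7.92 in DN2-3 and 6.51 and 6.64 in DN4 (-1.31 ± 0.11). Depletion and gating used surface CD4 and CD8, while the arrays measured RNA. Cd8b1, a coreceptor chain, read 6.83 and 7.08 in DN2-3 and 11.09 and 11.07 in DN4, which is 17.5-fold higher (4.13 ± 0.22 on the log2 scale, adjusted p = 3.76e-08), the largest rise among the tested genes. Its partner Cd8a read 6.42 and 6.56 against 9.57 and 9.39 (2.99 ± 0.18, adjusted p = 7.99e-08). Cd4 rose from 6.62 and 6.75 to 7.30 and 7.46 (0.70 ± 0.14, adjusted p = 0.00189). The Cd4, Cd8a and Cd8b1 arrays did not overlap between the stages.

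The next largest rises included Ikzf3, Cd2 and Camk4. Ikzf3, the transcription factor Aiolos, read 7.85 and 7.67 in DN2-3 and 10.54 and 10.43 in DN4 (2.73 ± 0.20, adjusted p = 6.56e-07). Cd2, an adhesion and costimulatory receptor, read 6.37 and 6.52 against 9.12 and 9.07 (2.64 ± 0.11, adjusted p = 3.38e-09). Camk4, a calcium-dependent kinase, read 7.78 and 7.80 against 9.63 and 9.64 (1.84 ± 0.12, adjusted p = 2.44e-07). For each of these genes both DN4 arrays lay well above both DN2-3 arrays. Ly96, the Toll-like receptor 4 cofactor MD-2, rose by 1.93 ± 0.28, the lysosomal reductase gene Ifi30 by 1.65 ± 0.09, the cohesin acetyltransferase gene Esco2 by 1.64 ± 0.19, Tdrkh by 1.62 ± 0.15, the tubulin gene Tubb2b by 1.62 ± 0.15, Adgre5 (CD97) by 1.57 ± 0.16, the tetraspanin gene Cd81 by 1.53 ± 0.23 and Syt13 by 1.50 ± 0.19. Ccr8, a chemokine receptor gene, was not above background in DN2-3 (5.08 and 5.68) and read 7.15 and 7.20 in DN4, a rise of at least 1.20. Trio, a guanine nucleotide exchange factor gene, was the least steady of the 15 largest rises: DN4 read 9.93 and 8.47 against 7.26 and 7.60 in DN2-3 (1.77 ± 0.43, adjusted p = 0.00566). Without DN4 replicate 1 its change was 1.04 with an adjusted p of 0.085, and another probe set of Trio gave -0.15.

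The largest falls were those of Scin, Cpa3 and Pld4. Scin, which encodes the actin-severing protein scinderin, read 10.26 and 10.41 in DN2-3 and 5.81 and 6.18 in DN4, a difference of -4.34 ± 0.17 (adjusted p = 2.94e-09). Cpa3, mast cell carboxypeptidase, read 11.64 and 11.61 against 7.88 and 7.40 (-3.99 ± 0.20, adjusted p = 2.23e-08). Pld4, an exonuclease of the phospholipase D family, read 11.34 and 11.29 against 7.40 and 7.49 (-3.87 ± 0.18, adjusted p = 1.25e-08). All of these were bright in both DN2-3 arrays and dim in both DN4 arrays. Nkg7, a cytotoxic granule gene, read 11.16 and 11.38 against 8.13 and 8.28 (-3.07 ± 0.12). Ptgs2, the inducible cyclooxygenase, read 11.46 and 11.53 against 8.54 and 8.67 (-2.89 ± 0.16). Atp8b4 differed by -3.08 ± 0.10, Lilr4b by -3.09 ± 0.19, Parp8 by -2.95 ± 0.12 and Cd59a, a complement inhibitor gene, by -2.63 ± 0.17. Lilr4b read 6.17 and 5.97 in DN4, also near background, so the size of its fall is not exact.

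For some of the largest falls the DN4 level was not above background, so only a bound can be given. Socs2, a feedback inhibitor of cytokine signalling, read 8.72 and 8.93 in DN2-3 and 5.28 and 5.35 in DN4, a fall of at least 2.85 log2, while its other probe set gave -1.02. By the same bound Sytl2 fell by at least 2.53, Muc13 by at least 2.45, Khdc1a by at least 1.84 and Rgs18, a regulator of G protein signalling, by at least 1.75. Of the 41 other probe sets of 26 named genes, 40 gave the same sign as the brightest, which was the one used throughout, and 4 differed from it by over 0.7.

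The pre-TCR and its signalling genes were mostly lower in DN4. Ptcra read 9.25 and 9.26 in DN2-3 and 8.19 and 8.15 in DN4 (-1.09 ± 0.16, adjusted p = 0.00015). Of 34 tested genes of the pre-TCR, the TCR complex and proximal signalling, 20 were called lower and 4 higher, with a median of -0.41 against -0.04 over all tested genes. Those that fell include negative regulators and adaptors: the adaptor gene Pag1 by 1.67, Sla2 by 1.54, the ubiquitin ligase gene Cblb by 1.40 and the phosphatase gene Ptpn22 by 1.04. The phospholipase gene Plcg1 fell by 0.94. The kinase gene Zap70 rose, from 8.43 and 8.39 to 9.19 and 9.30 (0.83 ± 0.09, adjusted p = 2.28e-05), as did the adaptor gene Sla by 0.54 ± 0.14, the kinase gene Txk by 0.45 ± 0.13 and Rasgrp1 by 0.29 ± 0.09. The calls of Sla and Txk were lost without DN2-3 replicate 1 or DN4 replicate 2, and that of Rasgrp1 without any of DN2-3 replicate 1, DN2-3 replicate 2 and DN4 replicate 1. Their changes were then 0.45 and 0.30 for Sla, 0.35 and 0.38 for Txk, and 0.31, 0.26 and 0.25 for Rasgrp1. With each array scaled to the same quartile ratio 14 of these 34 genes were called lower. The 4 genes called higher became 1 without DN2-3 replicate 1 and 2 without DN4 replicate 2.

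Cd3e, a chain of the CD3 complex, read 12.92 and 12.90 in DN2-3 and 12.50 and 12.72 in DN4 (-0.30 ± 0.10, adjusted p = 0.0233), but its sign turned when each array was scaled to the same quartile ratio (0.13, adjusted p = 0.622), and its call was lost without DN2-3 replicate 1 (-0.29), DN2-3 replicate 2 (-0.31) or DN4 replicate 1 (-0.19). Of 3 tested V genes of the TCR loci, 1 was called. Trdv2-2, a delta V gene within the alpha locus, read 8.84 and 8.80 in DN2-3 and 9.59 and 9.52 in DN4 (0.74 ± 0.16, adjusted p = 0.00252).

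Genes that TCR signals induce, with feedback genes of the MAP kinase pathway, were lower in 25 of 39 tested cases and higher in 4, with a median of -0.77. Jun, a subunit of the transcription factor AP-1, read 10.86 and 10.64 in DN2-3 and 8.81 and 8.98 in DN4 (-1.86 ± 0.25, adjusted p = 0.000105). The activation marker Cd69 read 10.52 and 10.60 against 9.05 and 8.71 (-1.68 ± 0.19, adjusted p = 2.27e-05). Other falls were 2.11 for the AP-1 gene Fosl2, 1.75 for Bhlhe40, 1.65 for the cytokine inhibitor gene Socs3 and 0.77 for Egr1, which encodes an early response factor. Another probe set of Socs3 gave -0.74. Cd5, a negative regulator whose level follows TCR signal strength in thymocytes, went the other way, from 8.27 and 8.44 to 9.38 and 9.22 (0.94 ± 0.10, adjusted p = 1.68e-05). The MAP kinase phosphatase gene Dusp10 rose by 1.22 ± 0.14 and the NF-kappa-B inhibitor gene Nfkbia by 0.68 ± 0.15. Genes of the stress and immediate-early list, which shares members with this one, were lower in 10 of 19 cases (52.6%) and higher in 4 (21.1%). Among all tested genes 25% were lower and 17.8% higher. The 4 were the chaperone genes Hspd1, Hsp90aa1 and Hspe1 and the RNA-binding protein gene Zfp36. The call of Hspe1 was lost without DN2-3 replicate 1 (0.42), DN2-3 replicate 2 (0.33) or DN4 replicate 1 (0.32).

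**Figure D2:**
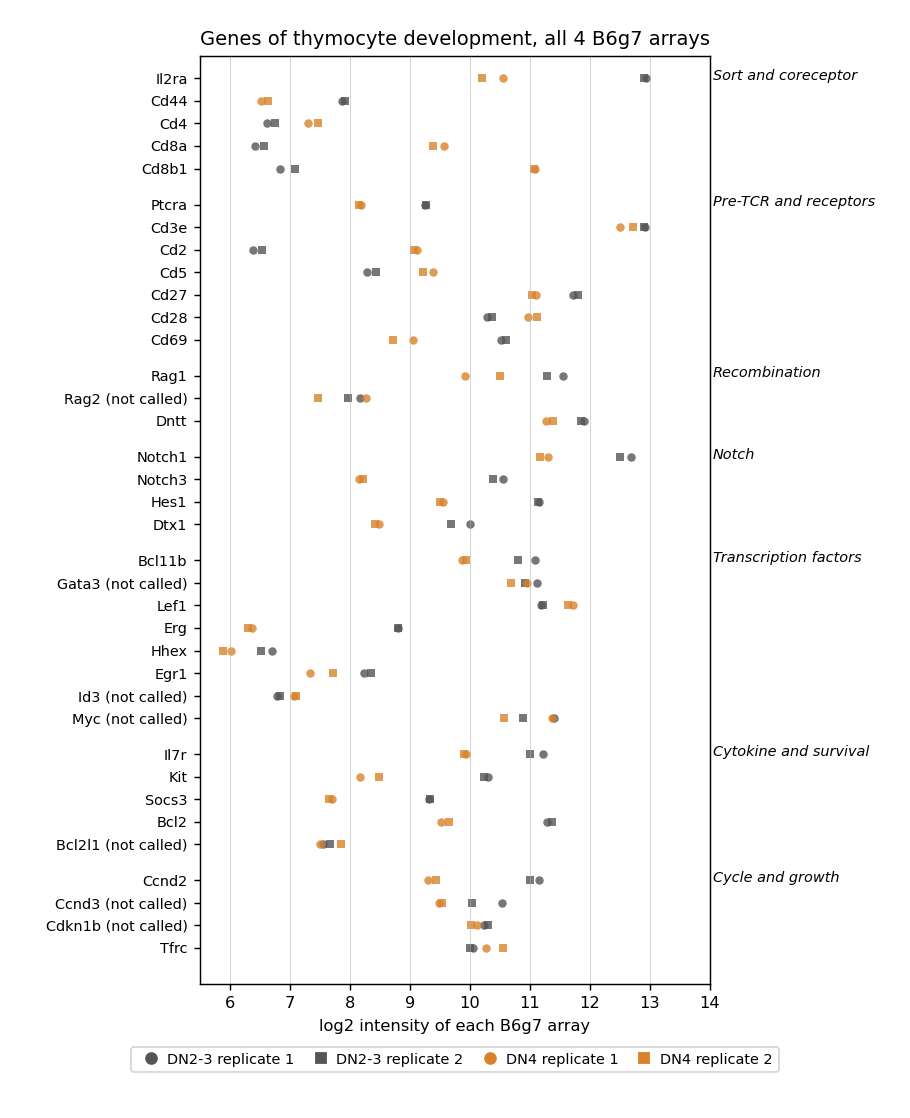
Log2 intensity on each of the 4 B6g7 arrays (horizontal) for genes of thymocyte development, grouped by role; gray marks are DN2-3 and orange marks DN4, circles replicate 1 and squares replicate 2. Notch3 lies at 10.55 and 10.39 in DN2-3 and at 8.14 and 8.22 in DN4, and Cd8b1 shows the opposite order, while the Rag2 and Myc arrays of the stages overlap.

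The Notch pathway was lower in DN4 at the level of receptors, coactivators and targets. Of 25 tested receptors, modifiers and targets 13 were called lower and none higher by limma, with a median of -0.68. At an unadjusted p under 0.05 limma gave 15 lower and 1 higher. Notch3 read 10.55 and 10.39 in DN2-3 and 8.14 and 8.22 in DN4 (-2.29 ± 0.21, adjusted p = 5.17e-06), and Notch1 read 12.68 and 12.50 against 11.29 and 11.16 (-1.36 ± 0.23, adjusted p = 0.000456). The target gene Hes1, a transcriptional repressor, read 11.16 and 11.13 against 9.56 and 9.49 (-1.62 ± 0.08, adjusted p = 2.23e-08). Both DN4 arrays lay below both DN2-3 arrays in each of these genes. The target Dtx1 fell by 1.39 and the coactivator gene Maml2 by 1.75 (-0.76 by its other probe set). Il2ra and Ptcra, described above, are also members of this list. Il2ra defines the gates, so its place among the 13 lower genes is a check of the sort and not a finding. The 13 calls did not change in number when any 1 of the 4 arrays was left out.

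Of the RAG genes, which cut TCR loci for recombination, Rag1 was called and Rag2 was not. Rag1 read 11.55 and 11.28 in DN2-3 and 9.91 and 10.49 in DN4 (-1.21 ± 0.24, adjusted p = 0.0016). Rag2 read 8.17 and 7.97 against 8.26 and 7.46, so its stages overlapped (-0.21 ± 0.22, adjusted p = 0.448). Without DN4 replicate 1 Rag2 was called, at -0.61. Dntt, which adds untemplated bases at the joints, fell by 0.56 ± 0.11, and the end-joining ligase gene Lig4 by 0.57 ± 0.16, a call lost without DN2-3 replicate 1 (-0.44) or DN4 replicate 1 (-0.50). In all, 4 of 14 tested recombination genes were called lower (28.6%) and 3 higher (21.4%), shares near those of all tested genes (25% and 17.8%), with 2 lower without DN2-3 replicate 1 and 1 higher without that array, DN2-3 replicate 2 or DN4 replicate 1. Hmgb2, a DNA-bending protein that is also a gene of dividing cells, rose by 1.00 ± 0.10.

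Progenitor genes that are silenced during T cell commitment were lower in 12 of 16 tested cases and higher in none, with a median of -0.79. Of these 16, limma gave 12 with an unadjusted p under 0.05, all lower. Erg, a transcription factor gene, read 8.80 on both DN2-3 arrays and 6.36 and 6.29 in DN4 (-2.47 ± 0.10, adjusted p = 2.94e-09). Kit, the stem cell factor receptor, read 10.29 and 10.23 against 8.16 and 8.48 (-1.94 ± 0.14, adjusted p = 5.18e-07). The surface protein gene Cd93 fell by 2.51 and the transcription factor genes Spi1 (PU.1) by 1.33 and Nfe2 by 1.08. Cd34 was not above background in DN4 and fell by at least 1.51. Each of the named genes read lower on both DN4 arrays than on either DN2-3 array.

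Of 24 tested transcription factors of T cell commitment 7 were called lower (29.2%), 4 higher (16.7%) and 13 in neither direction, shares near the 25% and 17.8% of all tested genes. Bcl11b, required for commitment, read 11.09 and 10.80 in DN2-3 and 9.86 and 9.94 in DN4 (-1.05 ± 0.16, adjusted p = 0.000277). Runx1 fell by 1.11, Runx3 by 1.06, Sox4 by 1.18 and Gfi1 by 0.57. Without DN2-3 replicate 1 the call of Gfi1 was lost (-0.41), and without DN4 replicate 2 only 2 of this list were higher. Lef1, an HMG-box factor that acts with Wnt signals and in beta-selection, rose from 11.19 and 11.22 to 11.71 and 11.63 (0.47 ± 0.09, adjusted p = 0.00122). Gata3 was -0.20 ± 0.12 (adjusted p = 0.188). Among 10 tested E proteins, their Id inhibitors and partners, 5 were called lower and 1 higher, with 3 lower without DN2-3 replicate 1 or DN4 replicate 2. The 5 lower and 1 higher are 50% and 10%, against 25% and 17.8% of all tested genes. Id2 fell by 0.69 and the E protein gene Tcf4 by 0.69. The Id inhibitor gene Id1 rose by 0.44 ± 0.11 (adjusted p = 0.00644), a call lost without DN2-3 replicate 2 (0.34) or DN4 replicate 1 (0.27). Id3, an Id inhibitor that pre-TCR signals are known to induce, read 6.78 and 6.84 against 7.06 and 7.10 and was not called (0.27 ± 0.13, adjusted p = 0.0979).

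Cytokine receptors and their signalling genes were lower in 18 of 24 tested cases (75%) and higher in 1 (4.17%). Over all tested genes these shares were 25% and 17.8%. Il7r, the receptor chain for the survival factor interleukin 7, read 11.22 and 11.01 in DN2-3 and 9.94 and 9.90 in DN4 (-1.19 ± 0.11, adjusted p = 4e-06). Il17rb fell by 1.97 and Il4ra by 1.84. Il2rb was not above background in DN2-3 and rose by at least 0.42. The survival gene Bcl2 also fell, from 11.29 and 11.36 to 9.52 and 9.64 (-1.75 ± 0.11, adjusted p = 1.39e-07), and the related Mcl1 fell by 1.04. Bcl2l1, which encodes Bcl-xL, read 7.56 and 7.66 against 7.50 and 7.84 and was not called (adjusted p = 0.698). Of 19 tested Bcl2 family and cell death genes 7 fell (36.8%) and 2 rose (10.5%), against 25% and 17.8% of all tested genes. The 2 that rose were Bid, a death agonist, by 1.09 ± 0.09 and Birc5 (survivin), also a mitotic gene, by 0.82 ± 0.12.

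Cell division genes rose together. Of 60 tested genes of mitosis and the spindle 47 were called higher, 78.3% against 17.8% of all tested genes, and none lower, with no member below 0 (0.04 to 1.30, median 0.75). At an unadjusted p under 0.05 limma gave 53 higher and 0 lower. The kinase gene Nek2 read 8.01 and 8.20 in DN2-3 and 9.51 and 9.31 in DN4 (1.30 ± 0.11, adjusted p = 2.14e-06). The checkpoint kinase gene Bub1 read 10.10 and 10.14 against 11.16 and 11.26 (1.09 ± 0.09, adjusted p = 2.25e-06). The kinetochore gene Spc25 read 8.30 and 7.84 against 9.24 and 9.37 (1.24 ± 0.15, adjusted p = 3.18e-05). Neither DN4 array overlapped a DN2-3 array in these genes. The kinesin gene Kif4 rose by 1.24, and the centromere genes Cenpk by 1.18 and Cenpe by 1.06.

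DNA replication and nucleotide synthesis genes were higher in 31 of 50 tested cases and lower in none, with a median of 0.41. At an unadjusted p under 0.05 limma gave 33 higher and 0 lower. Rfc4, a subunit of the clamp loader, read 10.54 and 10.55 in DN2-3 and 12.03 and 11.88 in DN4 (1.41 ± 0.09, adjusted p = 2.44e-07). Mcm10, a helicase cofactor, read 9.12 and 9.20 against 10.09 and 10.20 (0.99 ± 0.09, adjusted p = 4.19e-06). Rpa3, a subunit of the single-strand binding protein, rose by 1.21, the primase gene Prim1 by 0.99, thymidylate synthase, Tyms, by 0.91 and the polymerase subunit gene Pole2 by 0.84. Without any 1 of the 4 arrays 40 to 42 mitosis genes and 23 to 25 replication genes were called higher. With the arrays scaled to the same quartile ratio 55 and 39 were.

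Genes of the G1 phase were called in both directions. Ccne1 and Ccne2, the cyclins of S phase entry, rose: Ccne1 read 8.80 and 8.87 in DN2-3 and 10.09 and 10.20 in DN4 (1.31 ± 0.09, adjusted p = 2.28e-07), and Ccne2 rose by 1.45 ± 0.17. Ccnd2, a D-type cyclin, fell from 11.15 and 11.00 to 9.31 and 9.43 (-1.71 ± 0.17, adjusted p = 9.21e-06), and its kinase partner Cdk6 fell by 1.23. Ccnd3, the D-type cyclin required for the expansion of these cells, read 10.53 and 10.03 against 9.48 and 9.54 and was not called (-0.77 ± 0.33, adjusted p = 0.0784). The antiproliferative gene Btg1 fell by 1.09, and Cdkn1b was -0.20 ± 0.10 (adjusted p = 0.126). Of 28 tested genes of this list 11 rose (39.3%) and 3 fell (10.7%), against 17.8% and 25% of all tested genes. Histone genes, which the cell makes for new chromatin, were called higher in 10 of 27 cases (37%) and lower in 1 (3.7%). They are near-identical copies that the array may not separate. Their count moved with single arrays, with 3 called higher without DN4 replicate 1 and 16 without DN4 replicate 2, and 6 without DN2-3 replicate 2. H4c3, for example, read 9.85 and 9.64 in DN2-3 and 10.88 and 10.24 in DN4.

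The promoters of these genes are shown because the mitosis and replication genes moved together and many carry the same short element, the CCAAT box, the recognition sequence of the factor NF-Y. The letters CCAAT on either strand (CCAAT or ATTGG) stood in the 250 bases before the RefSeq start (GRCm38.p6) of 70.0% of 50 mitosis genes, 61.9% of 42 replication genes and 75% of 28 histone genes with a promoter in that table. They stood in 36.6% of the 8664 tested genes with a promoter, and in 34.5% of all 27025 genes of that table. Only the first listed start of each gene was searched. Of all genes called higher 40.1% carried it, and of those called lower 33.8%. TTTGAA, the core of the cell cycle homology region, stood on either strand in 36% of the mitosis genes and 35.7% of the histone genes, against 10.2% of tested genes. The E2F-type TTTNNCGC stood in 21.4% of the replication genes and 29.2% of 24 G1 genes against 7.58%, but also in 17.1% of 41 ribosome biogenesis genes and 15% of 20 genes of the Notch list, which was mostly lower in DN4. Of these Notch list genes 45.0% carried CCAAT. Oxidative phosphorylation genes, of which 66 had a promoter, carried CCAAT in 43.9% and the E2F-type letters in 9.09%. The Myc-type CACGTG stood in 7.32% of the ribosome biogenesis genes against 8.69%. No letters of 1 motif were excluded for a match to another, and a match describes the sequence and is not a measurement of binding.

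The 6 genes with the largest rises were taken from each of the mitosis and replication lists, and 9 of these 12 carried a CCAAT box. The 4 with 2 boxes in the last 120 bases before the start are printed 5′ to 3′ on the gene strand, boxes in capitals. All lie on the minus strand of GRCm38.p6: Bub1 at chr2:127831860-127831979, Mcm10 at chr2:5012792-5012911, Rpa3 at chr6:8259142-8259261 and Spc25 at chr2:69206214-69206333.
Bub1: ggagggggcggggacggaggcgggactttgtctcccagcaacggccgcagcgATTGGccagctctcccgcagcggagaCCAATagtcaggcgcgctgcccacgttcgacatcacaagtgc
Mcm10: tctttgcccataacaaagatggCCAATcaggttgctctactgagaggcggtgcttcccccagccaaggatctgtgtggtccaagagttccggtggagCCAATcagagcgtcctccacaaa
Rpa3: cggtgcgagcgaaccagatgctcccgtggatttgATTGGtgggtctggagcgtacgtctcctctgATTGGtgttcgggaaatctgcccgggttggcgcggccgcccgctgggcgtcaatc
Spc25: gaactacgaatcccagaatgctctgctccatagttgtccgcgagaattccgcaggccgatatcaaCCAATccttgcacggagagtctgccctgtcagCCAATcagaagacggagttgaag
Mcm10 and Spc25 carry both boxes as CCAAT, Rpa3 carries both as ATTGG, and Bub1 has 1 of each.

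Mitochondrial and protein breakdown genes were also higher. Of 77 tested subunits of oxidative phosphorylation 52 were called higher and 2 lower (median 0.43), of 77 mitochondrial ribosomal proteins 36 were higher and 0 lower (median 0.30), and of 37 proteasome subunits 13 were higher and 0 lower (median 0.21). At an unadjusted p under 0.05 limma gave 0 mitochondrial ribosomal proteins and 2 proteasome subunits lower. The complex I gene Ndufa2 read 9.97 and 10.10 in DN2-3 and 11.37 and 11.36 in DN4 (1.33 ± 0.20, adjusted p = 0.000208). Mrps22, a mitochondrial ribosomal protein gene, rose by 1.05 ± 0.12 and the proteasome gene Psmb3 by 0.54 ± 0.09. The ATP synthase gene Atp5d went down, from 12.45 and 12.15 to 10.64 and 11.25, but its call was lost without DN2-3 replicate 1 (-1.21), DN2-3 replicate 2 (-1.51) or DN4 replicate 1 (-1.06). In several of these small genes DN4 replicate 1 read higher than DN4 replicate 2, as in Mrpl42 (8.35 and 7.50, against 6.76 and 6.91 in DN2-3), and the count for oxidative phosphorylation was 31 without DN4 replicate 1.

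Cytosolic ribosomal protein genes and genes of ribosome biogenesis depended on the scaling. Of 58 tested cytosolic ribosomal protein genes 6 were called higher (10.3%) and 1 lower (1.72%), against 17.8% and 25% of all tested genes. When the arrays had the same quartile ratio, 29 were higher. The 6 became 3 without DN2-3 replicate 1, 2 without DN2-3 replicate 2, 1 without DN4 replicate 1 and 9 without DN4 replicate 2. Of 48 Myc and ribosome biogenesis genes 13 were higher (27.1%) and 4 lower (8.33%), and 28 were higher with that scaling. Without DN2-3 replicate 1 the 4 lower became 2. Proteasome subunits went from 13 to 26 with the same quartile ratio. The nucleolar gene Npm1 rose by 0.79 ± 0.15, and Mxd1, which encodes an antagonist of Myc, fell by 1.20 ± 0.19. Myc read 11.41 and 10.88 in DN2-3 and 11.37 and 10.57 in DN4, with stages that overlapped (-0.18 ± 0.22, adjusted p = 0.53). Without DN4 replicate 1 it was called, at -0.58. The transferrin receptor gene Tfrc rose by 0.39 ± 0.12 (adjusted p = 0.018), a call lost without DN2-3 replicate 1 (0.41), DN2-3 replicate 2 (0.36) or DN4 replicate 2 (0.24), while the amino acid transporter gene Slc7a5 fell by 0.73 ± 0.13. Glycolysis and pentose phosphate genes were called higher in 4 and lower in 4 of 25 cases (16% each, against 17.8% and 25% of all tested genes), with 2 lower without DN2-3 replicate 1, DN2-3 replicate 2 or DN4 replicate 1.

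**Figure D3:**
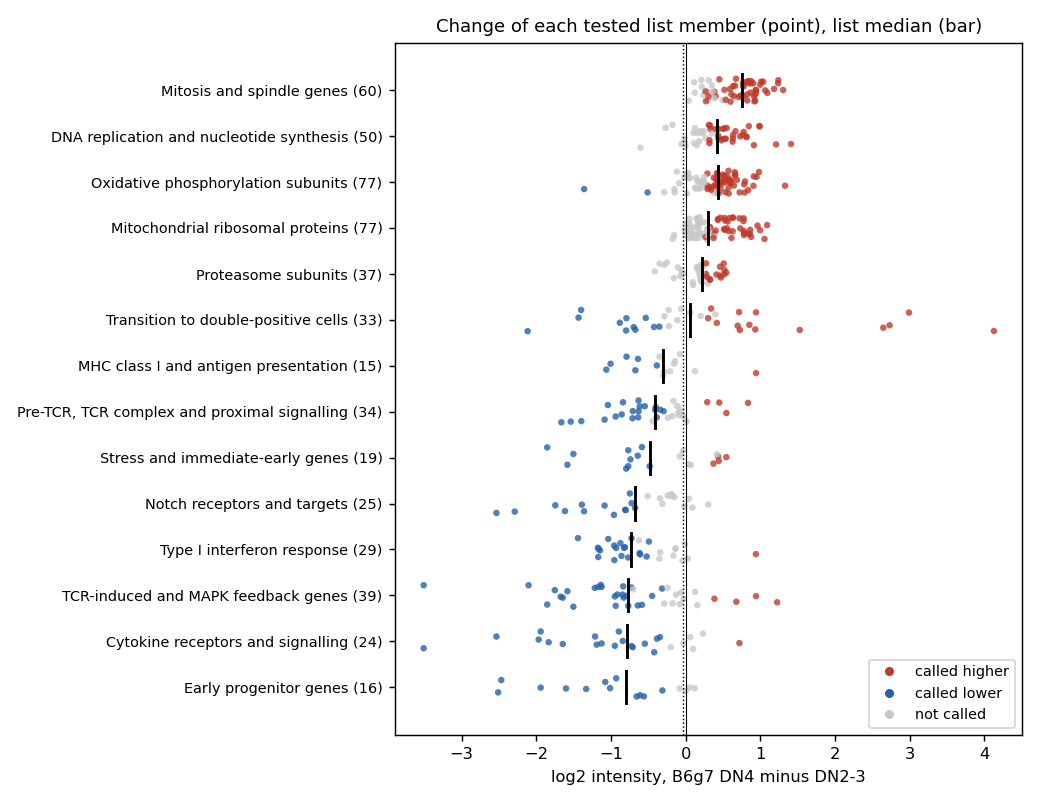
Difference in log2 intensity, B6g7 DN4 minus DN2-3 (horizontal), for the tested members of 14 gene lists, with the number of members in brackets; black bars are list medians and the dotted line is the median of all tested genes (-0.04). All 60 mitosis genes lie above 0, and the medians of the Notch (-0.68) and early progenitor lists (-0.79) lie well below it.

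The genes of the next stage were mixed. Of 33 tested genes listed for the step to double-positive cells 14 rose (42.4%) and 11 fell (33.3%). Among all tested genes 17.8% rose and 25% fell. Besides Cd8b1, Cd8a, Ikzf3 and Cd2, the costimulatory receptor gene Cd28 rose from 10.28 and 10.37 to 10.97 and 11.11 (0.71 ± 0.09, adjusted p = 6.65e-05), and the adaptor gene Sh2d1a (SAP) by 0.85 ± 0.14. The tetraspanin genes Cd53 and Cd82 fell by 2.12 and 1.40, and Ccr9, the receptor for a thymic chemokine, by 0.80. Cd27, a costimulatory receptor gene, went from 11.72 and 11.81 to 11.10 and 11.03 (-0.70 ± 0.11). Without DN2-3 replicate 1 or DN4 replicate 2 the list had 7 lower calls. Among costimulatory, inhibitory and SLAM receptors 10 of 26 rose and 10 fell, 38.5% each. Ly9 rose by 1.26 and Cd6 by 0.72, and Tnfrsf18 (GITR) fell by 1.68 and Ctla4 by 0.94.

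Interferon-response genes were lower in 19 of 29 tested cases (65.5%) and higher in 1 (3.45%), with a median of -0.73. Over all tested genes these shares were 25% and 17.8%. Oasl2, an antiviral gene, read 8.45 and 8.77 in DN2-3 and 7.16 and 7.17 in DN4 (-1.44 ± 0.20, adjusted p = 0.000131). The factor gene Irf9 fell by 1.15, the sensor gene Ifih1 by 1.18 and Parp14 by 1.17. Ifit2 rose from 7.70 and 7.74 to 8.79 and 8.53 (0.94 ± 0.14, adjusted p = 0.000227), the 1 member called higher. Of 15 tested genes of MHC class I and antigen presentation 6 fell (40%) and 1 rose (6.67%). Those that fell include Tapbp by 1.06, Tap1 by 0.79 and Tap2 by 0.64, and H2-T10 rose by 0.94.

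Markers of other cells that a sort could hold moved as follows, and their part in the results was not tested. In bulk samples fewer cells of a type and less RNA per cell cannot be told apart. The summed intensity of 10 B cell markers was 1438 and 1411 in DN2-3 and 1071 and 1095 in DN4; 1 of 2 tested was lower (Cd79b), and Cd79a, Ebf1 and Ms4a1 were not above background on any of the 4 arrays. For 14 myeloid and dendritic markers the sums were 1314 and 1275 against 1068 and 1123; 2 of 4 tested were lower, Lyz2 by 1.83 and Mpo by 0.92, and Adgre1, Csf1r, H2-Aa, Itgam and S100a8 were not above background. For 11 NK and NKT markers the sums were 3651 and 4017 against 2269 and 2533. A sum follows its brightest members, here Nkg7 (11.16 and 11.38 log2 in DN2-3, 8.13 and 8.28 in DN4). The fall of Nkg7 alone is larger than that of the sums. Of 6 tested, Nkg7 and Gzmb were lower and Gzma, Tbx21 and Il2rb higher, with a median of 0.36. Eomes, Klrb1c, Klrd1, Klrk1 and Ncr1 were not above background. For 17 gamma-delta and innate-like T cell genes the sums were 10570 and 10830 against 4370 and 4766. Of 14 tested, 6 were lower (42.9%) and 3 higher (21.4%), with a median of -0.22. Over all tested genes these shares were 25% and 17.8%. Cpa3, Nkg7 and Il17rb, the 3 that fell most, are in this list, and Ccr6 and Il23r were not above background. For 11 stroma markers the sums were 3211 and 3057 against 1864 and 1957; 3 of 6 were lower (Pdgfrb, Epcam and Pecam1), 2 were higher, calls that were both lost without DN2-3 replicate 1 or DN4 replicate 2, and Krt5 was not above background.

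For 13 mature T cell markers the sums were 6647 and 6703 in DN2-3 and 4923 and 4922 in DN4. Of 12 tested, 3 were higher (Gimap4, Icos and Ccr7) and 3 lower (Il7r, Ctla4 and Ms4a4b). This is 25% each, against 17.8% and 25% of all tested genes, with a median of 0.15. The sums follow bright members such as Il7r (11.22 and 11.01 log2 in DN2-3, 9.94 and 9.90 in DN4). Cd40lg was not above background. The calls of Ccr7 and Ms4a4b were lost without DN2-3 replicate 1, among other arrays (0.51 and -0.62). The 4 erythroid markers had sums of 1290 and 1267 against 1524 and 1780, and Tfrc was the 1 called. The 11 double-positive markers had sums of 14490 and 13740 against 12840 and 13360. Of the 11, 4 were higher (36.4%), among them Cd8a and Cd8b1, and 5 lower (45.5%), among them Rag1 and Ccr9.

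The same step in NOD mice was compared through the interaction of stage with strain, which shares no array between its 2 stage changes. Across the 10689 genes the changes correlated with r of 0.632, and 62.7% of the genes called higher in B6g7 were called higher in NOD, which is 42.4% of those called higher in NOD. Of those called lower in B6g7 35.9% were called lower in NOD, or 72.9% of the NOD list. Over all 10689 genes 2810 were called higher in NOD and 1314 lower. Calls with opposite signs in B6g7 and NOD numbered 64. The difference was called in 967 genes, 784 (7.33%) more positive in NOD and 183 (1.71%) more negative. The split was 674 and 539 with each array scaled to the same quartile ratio, and 244 and 141 with quantile normalization again. The count was 5 with only the arrays compared in the fit and 16 with array weights. Without the NOD DN2-3 replicate 1 that stood apart it was 404, and without 1 array at a time it lay between 21 and 5578. Each array except B6g7 DN4 replicate 2 moved it by over 1.5 times. The median difference over all genes also moved with the scaling. It was 0.16 with the deposited values, 0.30 with each array centred on its median, 0.03 with quantile normalization again and 0.01 with the same quartile ratio.

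Tpd52 was called in each of 17 alternatives. It read 9.14 and 9.20 in B6g7 DN2-3 and 6.99 and 6.92 in B6g7 DN4 (-2.21 ± 0.14), while NOD averaged 6.83 and 6.62 at the same stages, a difference of stage changes of 2.01 ± 0.20 (adjusted p = 0.00116). Scin, which fell by 4.34 in B6g7, changed by -2.51 in NOD (difference 1.83 ± 0.25, adjusted p = 0.00384), with an NOD DN2-3 mean of 8.18. Rab27a, a gene of vesicle transport, read 10.28 and 10.25 against 8.76 and 8.88 in B6g7 (-1.45 ± 0.16) and changed by 0.32 in NOD (difference 1.77 ± 0.23, adjusted p = 0.00367). Txk rose by 0.45 in B6g7 and changed by -1.03 in NOD (difference -1.48 ± 0.19, adjusted p = 0.00307).

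The comparison with the BDC2.5 transgenic thymocytes of the same strain gave a far larger set of differences, and the direction of the cell division genes was opposite. The labels give both stages the same gates in these mice, while the transgene supplies a rearranged TCR. The interaction of stage with transgene was called in 5805 genes, 2917 (27.3%) more positive in BDC/B6g7 and 2888 (27%) more negative. Across genes the stage changes correlated with r of -0.271, and 2225 genes were called in both with opposite signs. With the same sign, 165 were called higher in both and 364 lower in both. Of the 60 mitosis genes 59 differed, each more negative in BDC/B6g7: the median change was 0.75 in B6g7, 0.92 in NOD and -1.20 in BDC/B6g7. Of the 50 replication genes 49 differed in that direction, with medians of 0.41, 0.80 and -1.44. Esco2, for example, rose by 1.64 in B6g7 and changed by -1.57 in BDC/B6g7 (difference -3.21 ± 0.27, adjusted p = 6.66e-07).

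Differentiation genes differed as well. Cd8b1 and Cd8a rose by 4.13 and 2.99 in B6g7 and changed by 0.12 and 0.05 in BDC/B6g7 (differences -4.00 ± 0.31 and -2.94 ± 0.25). Cpa3 changed by -3.99 in B6g7 and by 0.44 in BDC/B6g7, where its means were 11.98 and 12.42 (difference 4.43 ± 0.28), and Pld4 and Ptgs2 differed by 4.40 ± 0.25 and 4.01 ± 0.23. The integrin gene Itgae and Ccr9 fell by 1.29 and 0.80 in B6g7 and changed by 4.34 and 4.24 in BDC/B6g7. Of 39 tested TCR-induced genes 26 were more positive in BDC/B6g7 and 2 more negative, with a median change of 0.51 there against -0.77 in B6g7. Interferon-response genes differed in the same way in 22 of 29 cases, against 2 more negative. Early progenitor genes had a median below 0 in each kind of mouse, -0.79 in B6g7, -1.10 in NOD and -0.90 in BDC/B6g7, and 3 and 4 of 16 differed from BDC/B6g7 in the positive and negative direction.

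**Figure D4:**
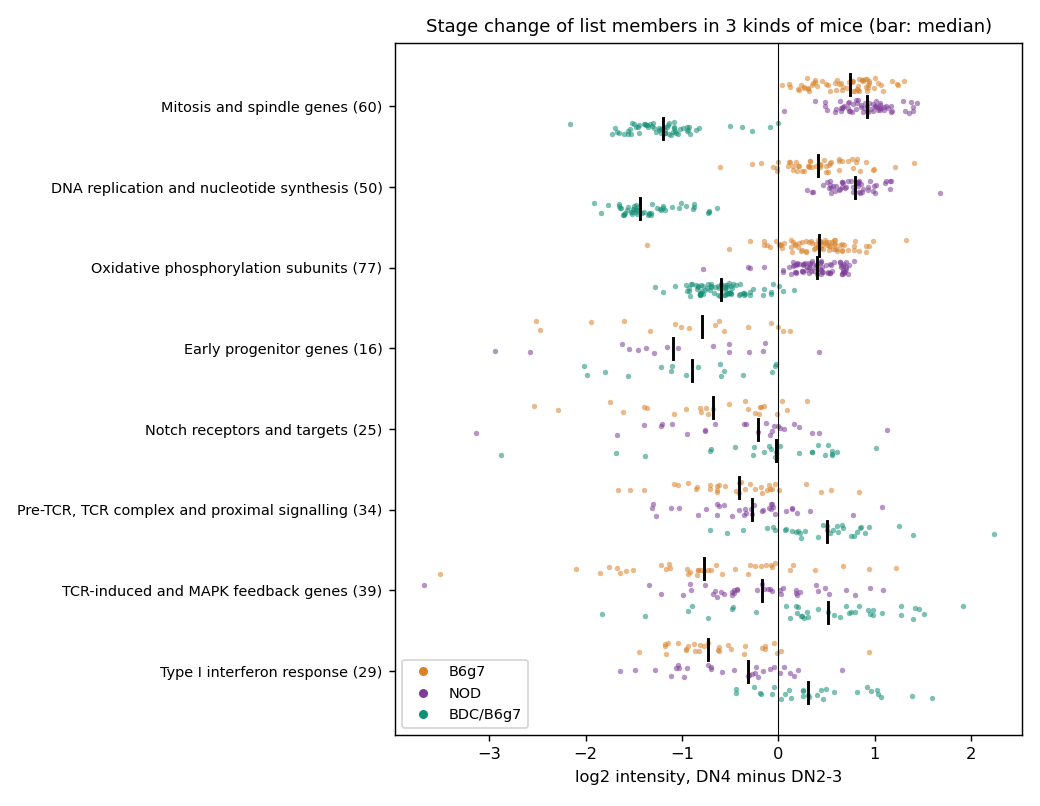
Difference in log2 intensity, DN4 minus DN2-3 (horizontal), for the tested members of 8 gene lists in polyclonal B6g7 (orange), polyclonal NOD (purple) and BDC/B6g7 transgenic thymocytes (green), with black bars for medians and the number of members in brackets. The mitosis genes have a median of 0.75 in B6g7 and of -1.20 in BDC/B6g7, while the early progenitor genes lie mostly below 0 in each of the 3.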

How the data were processed

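RNA of 16 samples was measured on Affymetrix mouse gene arrays, 1 array each. The authors deposited linear intensity values that RMA in Affymetrix Power Tools had normalized, per the submitters' processing notes; versions are not given in the sources used here. Their log2 was taken with no pseudocount. Of 25108 probe sets, 21157 had 1 gene symbol, 1341 several and 2610 none, and 21074 symbols were matched to RefSeq by gene ID. The brightest probe set of each of 19531 genes was kept, and the 10689 genes whose highest group mean reached 7.05 log2 (132.9 linear) were tested. Limma 3.58.1 in R 4.3.3 fitted 8 group means over all arrays with eBayes, and p-values were adjusted by Benjamini-Hochberg. The number of arrays limits the precision. The method was tested on simulated data.

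The genes named are up to 15 with the largest called changes in each direction without overlap between stages, a list of key genes, up to 6 called genes per list and direction, and up to 8 per interaction and direction. The members and lists were chosen with earlier results of these data known, and no list was tested as a set. Alternatives were other filters, probe sets, scalings and models, and leaving out each array.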

Additional observations from a re-analysis of the deposited data

Results flagged for a closer look

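The stage change in NOD differed from that in B6g7 in 967 genes, and that in BDC/B6g7 in 5805 genes, by the interaction terms of the limma fit. Both interactions use the same 4 B6g7 arrays. The values that follow are differences of stage changes in log2, with an adjusted p under 0.05 for each interaction term.

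More positive changes in NOD were led by Khdc1a 3.52, Tpd52 2.01, Scin 1.83, Nr4a1 1.79, Rab27a 1.77, Eid3 1.74, Coro1a 1.72 and Adgrd1 1.68. More negative changes were led by B4galnt2 -1.92, Ly96 -1.63, Tcte2 -1.61, Ifitm1 -1.52, Txk -1.48, Cd8b1 -1.44, Adgrg7 -1.43 and Lrrn3 -1.42. Khdc1a averaged 4.19 and 4.05 in NOD DN2-3 and DN4, below the background level of 5.98. Tcte2 and Adgrg7 were not above background at either stage in B6g7. The sizes of these 3 differences are therefore not measured. Scin averaged 5.68 in NOD DN4, also below that level, so the size of its difference is not exact. Of 17 alternatives, Tpd52 kept its call in 17, Khdc1a, Scin, Rab27a, Txk and Lrrn3 in 16, Nr4a1 in 7 and Coro1a in 6.

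More positive changes in BDC/B6g7 were led by Itgae 5.63, Ccr9 5.04, Rgs1 4.47, Cpa3 4.43, Pld4 4.40, Ptgs2 4.01, Gria3 3.83 and Samhd1 3.75. More negative changes were led by Cd8b1 -4.00, Ccne2 -3.25, Esco2 -3.21, Pbk -3.08, Rfc4 -3.07, Lrr1 -2.96, Cd8a -2.94 and Bcat1 -2.94. Each of these 16 genes kept its call in the 17 alternatives run. With 2 arrays per group, no array could be tested for standing apart within its group.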

How the results depend on the processing

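The 4571 calls of the B6g7 stage change became 4189 to 5417 under other filters, probe sets, scalings and models, 4602 with a replicate block, 567 with a 2-fold minimum and 2821 to 5909 without 1 array. Settings chosen after seeing the data gave 4931 with the same quartile ratio and 5117 with only the arrays compared and quantile normalization again. The 967 differences from NOD became 485 without a filter, 385 with quantile normalization again, 2634 with each array centred on its median, 16 with array weights, 5 with only the arrays compared, 172 with a 2-fold minimum, 1324 with a replicate block and 21 to 5578 without 1 array. The 5805 differences from BDC/B6g7 became 2419 with a 2-fold minimum, 5823 with a replicate block and 5038 to 6699 without 1 array. Deviations of same-numbered arrays correlated between the stages at 0.10 in B6g7, 0.59 in NOD, 0.48 in BDC/B6g7 and 0.46 in BDC/NOD. Across kinds of mice both signs occurred. In the BDC groups replicate 1 was male and replicate 2 female, so replicate number and sex cannot be told apart there. The labels name no shared animal or day and each comparison has only 2 numbers, so the fit without the replicate block was kept; with it 269 of 271 named called genes kept their call. Of those genes 217 to 240 kept their call without 1 B6g7 array and 258 with the same quartile ratio, where Cd3e reversed to 0.13; the cause was not tested. Signals near the background of 5.98 log2 give only bounds.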

Other observations

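Surface enzymes and Ly6 antigens were called lower in 5 (41.7%) and higher in 2 (16.7%) of 12 tested cases, against 25% and 17.8% of all tested genes. Bst1, an ectoenzyme gene, read 11.25 and 11.35 in DN2-3 and 8.92 and 8.83 in DN4, a difference of -2.42, and the peptidase gene Dpp4 read 11.69 and 11.65 against 10.43 and 10.42 (-1.25). Thy1, a surface marker of T lineage cells, rose by 0.48. Of 24 tested chemokine receptors, integrins and egress genes 11 were lower (45.8%) and 4 higher (16.7%). Over all tested genes these shares were 25% and 17.8%. The lower genes include Cd44, which defines the DN4 gate, so its fall is a check of the sort and not a finding. The integrin gene Itga5 differed by -1.08 and Itga4 by -0.92, and Ccr4 rose by 1.05 and Itgb2 by 0.94. Without DN2-3 replicate 1, 6 of this list were lower.

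Cholesterol and fatty acid synthesis genes were lower in 7 (24.1%) and higher in 3 (10.3%) of 29 cases, against 25% and 17.8% of all tested genes, with 2 lower without DN2-3 replicate 1, 3 lower without DN4 replicate 1 and 0 higher without DN2-3 replicate 2. Nutrient transporters were lower in 5 (27.8%) and higher in 3 (16.7%) of 18 cases, also near those shares. Without DN2-3 replicate 1 these became 1 and 1, without DN2-3 replicate 2 they became 2 and 2, and without DN4 replicate 1 also 2 and 2. Of 8 Gimap GTPase genes 2 were lower, Gimap1 and Gimap5, and 2 higher, Gimap4 and Gimap3, the latter not above background at either stage. This is 25% each, against 25% and 17.8% of all tested genes.

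Some families that do not form a list of their own were chosen after their values were seen and carry no test of the family. The 6 tested guanylate-binding protein genes (Gbp), which interferons induce, were each called lower in DN4, from -0.52 for Gbp3 to -2.30 for Gbp11, with a median of -1.75. Of 21 tested centromere protein genes (Cenp) 14 were called higher and 0 lower, against 17.8% and 25% of all tested genes. Some of them are also in the mitosis list and were counted there. The genes Tmem176a and Tmem176b fell by 2.07 and 1.81, and the cytochrome P450 genes Cyp2j6 and Cyp2j9, not above background in DN4, fell by at least 1.42 and 1.59.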
